A study of Rattus norvegicus with 10 samples.

Results

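The arrays compared here are the 4 labelled as under-developed testes from obese Zucker rats and the 2 labelled as normally developed testes from lean rats, which are 6 of the 10 arrays of the series. Members were chosen by those titles alone, and each under-developed array was set against the mean of the 2 lean arrays. The other 4 arrays, normally developed testes from obese rats, were measured in the same way and serve as the background. The labels name no treatment and put all the rats at 14 weeks of age and sexual maturity. The obese phenotype of the Zucker rat comes from the fa allele of the leptin receptor gene, and the labels give the model as Zucker (fa/fa) for every array, the lean ones included, so the genotype of the lean animals is not settled by them. Total RNA of whole testis was hybridised, and each array is called a biological replicate with nothing that says whether the animals were separate, so the p-values cover only how far these samples vary, which may be technical. The leptin receptor gene was not among the genes measured. Defining genes of the testis were bright in both lean arrays, with Prm1 of spermatids at 12.40 and 12.45 and Insl3 of Leydig cells at 9.67 and 9.69.

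In a mature testis most of the RNA comes from germ cells inside the seminiferous tubules. Spermatogonia divide and enter meiosis as spermatocytes, which become round and then elongating spermatids, and each step switches on genes used nowhere else in the body, for the synaptonemal complex, piRNA defence, the acrosome, the tail and the exchange of histones for protamines. Sertoli cells nurse the germ cells and engulf those that die, while Leydig cells, peritubular myoid cells, vessels and macrophages make up the tissue around the tubules. In whole tissue, fewer cells of a type and less RNA per cell cannot be told apart, and a gene of one cell type gains level when RNA of another is lost.

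Levels are log2 values after RMA, a method that corrects background, equalises the distribution of the arrays and summarises the probes of each set. The median lean level over the 18166 genes was 6.87, and a difference of 1 is a 2-fold change. A gene is said to have risen or fallen in an array when limma, with the spread taken from the 6 normal arrays, gave a Benjamini-Hochberg adjusted p under 0.05 over all genes. That test compares 1 array with the lean mean and does not compare the conditions. A gene that rose or fell without further words did so in at least 3 of the 4 under-developed arrays, which held for 20.4% of all genes upward and 21.1% downward.

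Arrays 1, 2 and 3 of the under-developed group differed widely from the lean testes, and array 4 did not. At least 2-fold above the lean mean were 2882 genes in array 1 (15.9%), 1493 in array 2 (8.22%), 3530 in array 3 (19.4%) and 7 in array 4 (0.0385%). At least 2-fold below it were 2859 (15.7%), 1143 (6.29%), 3039 (16.7%) and 3 (0.0165%). The normal obese arrays held 2 to 17 genes above and 3 to 14 below, so in these counts of named genes array 4 lay within the range of the normally developed testes. Among probe sets without a name it lay outside that range upward, with 181 above lean against 36 to 73. Set against either lean array alone, array 4 had 14 to 20 genes above and 6 to 10 below. The same 2-fold step in at least 3 of the 4 arrays was taken by 1457 genes upward (8.02%) and 1057 downward (5.82%). Across genes, the level in array 4 correlated with the lean mean at r = 0.996, against 0.851, 0.943 and 0.726 for arrays 1 to 3, where genes share each array and are not replicates.

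**Figure D1:**
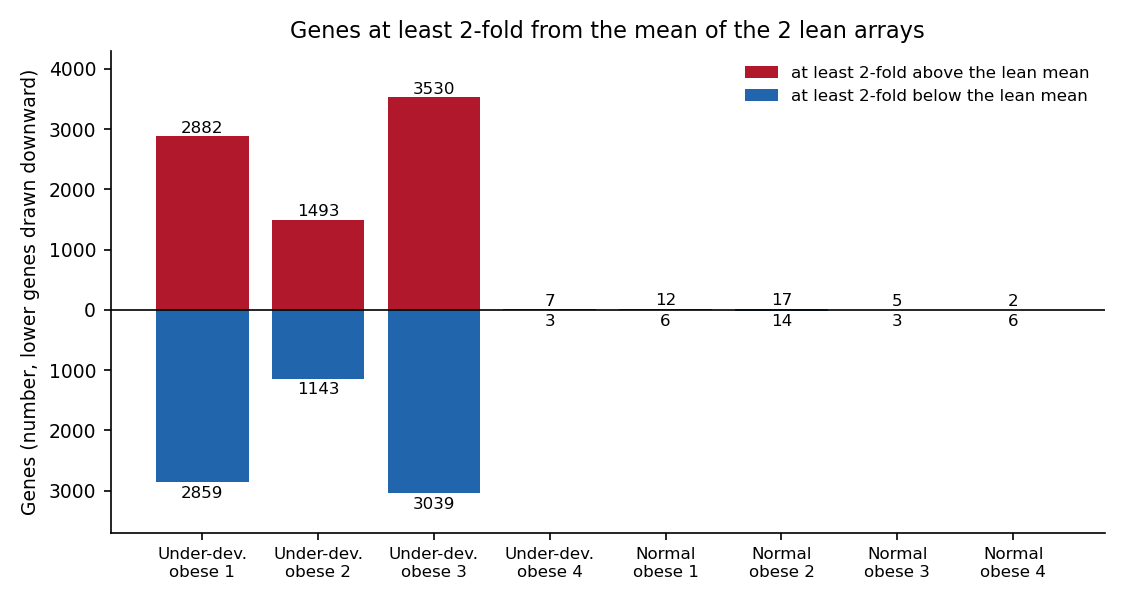
Number of genes at least 2-fold above (red, upward) or below (blue, downward) the mean of the 2 lean arrays, for each under-developed obese array and, as background, each normal obese array. Arrays 1 to 3 hold 1493 to 3530 higher and 1143 to 3039 lower genes, and array 4 has 7 and 3.

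By the limma test of each array, 5647 genes rose in array 1 (31.1%) and 5378 fell (29.6%). In array 2 these numbers were 4040 (22.2%) and 4790 (26.4%), and in array 3 they were 7002 (38.5%) and 4865 (26.8%). In array 4 limma called 0% of genes higher and 0% lower, with 1303 genes at an unadjusted p under 0.05 and a smallest adjusted p of 0.28. The split between risers and fallers depends on the scale. Of the calls in arrays 1 to 3, 51.2%, 45.8% and 59% were upward on the deposited scale. These shares were 43%, 35% and 54.3% with each array centred on its median, 12.5%, 10.5% and 16.8% with the ribosomal proteins held level, and 8.69%, 5.63% and 9.09% with the Sertoli cell list held level. The median over all genes, averaged over the 4 arrays, moved from 0.029 on the deposited scale to -0.61 and -0.89 under the last 2 scales, so a rise below is a rise relative to the other genes of the array. Where genes above the median level are named below, the level is the gene's mean over all 10 arrays. A dim gene that is high in arrays 1 to 3 could thus pass, which can lift a list mean by itself.

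As a group the 4 under-developed arrays gave no call against the 2 lean arrays with equal weights. In the limma fit of group means 0% of genes passed upward and 0% downward, with a smallest adjusted p of 0.154 and 5776 genes at an unadjusted p under 0.05. That fit drew its spread from all 10 arrays. With the 6 arrays alone limma gave a smallest adjusted p of 0.373 and 881 genes at an unadjusted p under 0.05. The median SD over genes was 0.36 within the under-developed arrays, 0.10 within the normal obese and 0.077 within the lean arrays. Without array 4 the same fit called 4646 genes higher and 4220 lower. With array 4 kept, it called 3215 higher and 2858 lower against all 6 normal arrays. With array weights it called 4961 and 4659, but array 4 then counted little. Its weight was 0.062, against 0.97, 0.28 and 0.19 for arrays 1 to 3. An exact permutation test of 4 arrays against 2 cannot give a p below 0.0667, so single genes are given below by their level in each array.

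Testin and Oxct1 had the largest median rises. Testin, a protein that Sertoli cells secrete and place at their junctions, had levels of 12.09, 11.43 and 12.21 in arrays 1 to 3, 5.53 in array 4 and 5.02 and 4.71 in the lean arrays. Arrays 1 to 3 were far above array 4, both lean arrays and all normal obese arrays, with no overlap. Its adjusted p by limma was 6.27e-06 to 6.49e-05 in arrays 1 to 3, and its group difference with array 4 included was 5.45 ± 1.65 (SE, adjusted p = 0.154). The normal obese arrays had 5.14 to 6.79. Oxct1, which encodes the mitochondrial enzyme that lets most tissues burn ketone bodies, had levels of 10.72, 9.6 and 10.45 in arrays 1 to 3, 5.72 in array 4 and 5.7 and 5.47 in the lean arrays, with 5.46 to 6.18 in the normal obese arrays. Timp1, an inhibitor of matrix metalloproteinases, had 12.49, 11.85 and 12.38 in arrays 1 to 3, 8.27 in array 4 and 8.25 and 7.64 in the lean arrays. For Cp, the copper-carrying ferroxidase ceruloplasmin that Sertoli cells also make, the levels were 12.02, 11.47 and 12.14 in arrays 1 to 3, 7.89 in array 4 and 8.0 and 7.13 in the lean arrays. In each of these genes array 4 was within 1 unit of the lean arrays.

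The other genes of the 12 with the largest median rise had differences from lean of 3.45 to 5.06 in arrays 1 and 2. They were the complement protease C1s (4.4, 3.77 and 4.52 in arrays 1 to 3) and its inhibitor Serping1 (4.66, 3.66 and 4.41). They also included Osmr, the receptor of the cytokine oncostatin M (4.63, 3.71 and 4.51), and Cd200, a surface protein that restrains myeloid cells (4.37, 3.45 and 4.56). The intracellular chloride channel protein Clic1 (4.64, 3.96 and 4.72), the ubiquitin ligase Trim2 (4.71, 3.58 and 4.65), the interferon-induced membrane protein Ifitm2 (4.25, 3.67 and 4.85) and the stress regulator Nupr1 (5.06, 3.65 and 4.26) completed the set. Array 4 differed from lean by -0.12 to 0.47 in these 8 genes. Ifitm2 belongs to a family of near copies, whose signals the probes may not separate.

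The genes with the largest median fall included several known from late germ cells. Wdr64, a WD-repeat protein, had levels of 6.89, 9.4 and 5.75 in arrays 1 to 3, 11.47 in array 4 and 11.49 and 11.40 in the lean arrays. Oxct2b, the spermatid counterpart of Oxct1, had 7.02, 9.43 and 6.41 in arrays 1 to 3, 11.26 in array 4 and 11.32 and 11.35 in the lean arrays. Both genes were lowest in array 3, in between in array 2 and at the lean level in array 4. Prss59, a trypsin-like serine protease, had 6.34, 9.88 and 5.01 in arrays 1 to 3, 11.39 in array 4 and 11.27 and 11.34 in the lean arrays, and its group difference by limma was -3.15 ± 1.49 (SE, adjusted p = 0.169). Fscn3, the testis form of the actin-bundling protein fascin, differed from lean by -4.25, -1.7 and -4.78 in arrays 1 to 3. The spermatid kinase Dyrk4 differed by -4.13, -1.75 and -4.4, and Spata32 by -4.53, -1.48 and -5.6. B3gnt5, a glycosyltransferase that starts lacto-series chains on lipids, differed by -3.98, -2.18 and -4.49. The differences of Cimap2, a protein of ciliary microtubules, were -4.16, -1.87 and -4.49, and those of Ceacam6, a cell adhesion molecule, were -4.75, -1.54 and -5.07. Prss58 (-4.32, -1.71 and -5.26), Garin4 (-3.94, -2.0 and -4.26) and Antxrl3 (-3.93, -1.96 and -4.03) completed the 12. In every one of them array 2 kept more of the lean level than arrays 1 and 3. Oxct2b, Prss58, Prss59, Ceacam6 and Antxrl3 have close relatives whose signals may be mixed.

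**Figure D2:**
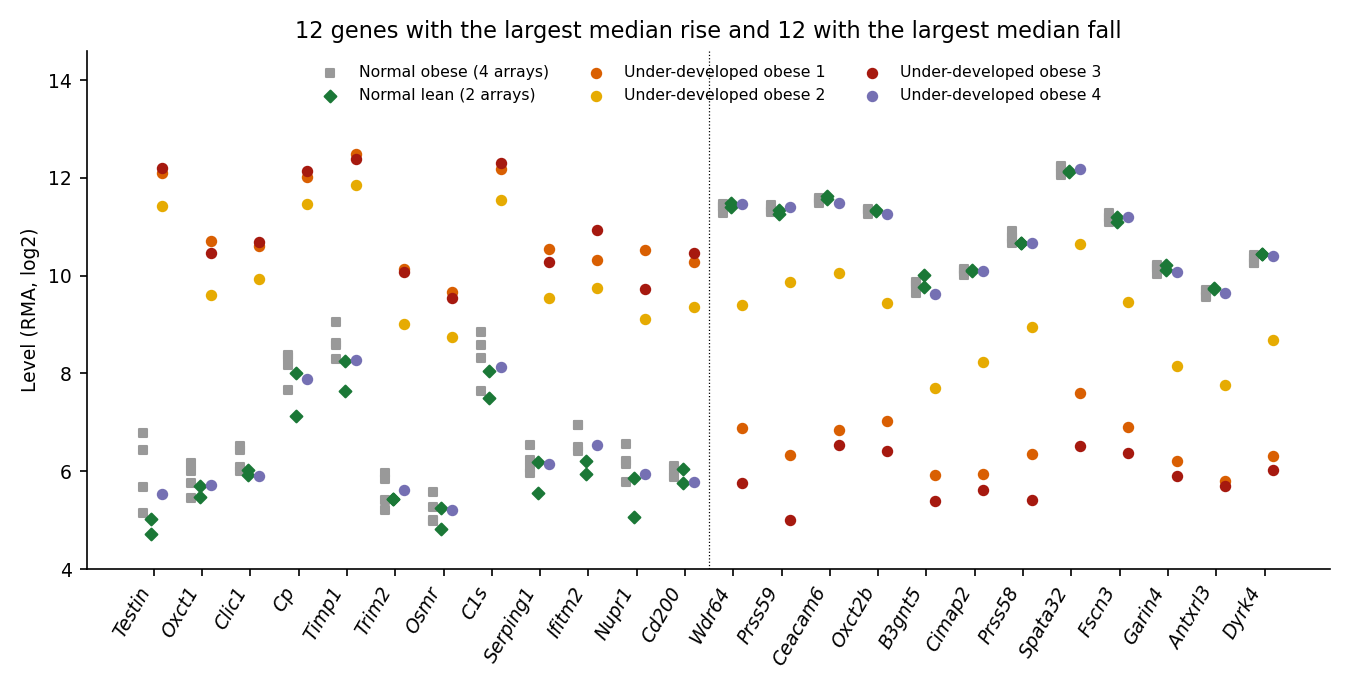
RMA log2 level in each of the 10 arrays of the 12 genes with the largest median rise (left of the dotted line) and the 12 with the largest median fall (right) over the under-developed arrays, each point being 1 array. Arrays 1 to 3 stand apart from the lean (green) and normal obese (grey) arrays in all 24 genes, while array 4 (purple) lies among or next to them.

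Ordered by stage, the germ cell lists had medians near lean for spermatogonia, with members far to both sides, and most genes of the meiotic and later lists fell. The median difference over 20 measured genes of undifferentiated spermatogonia was 0.14, 0.034 and 0.35 in arrays 1 to 3, beside 0.0074, -0.037 and 0.15 over all genes. Its mean over the 4 arrays went from 0.13 to -0.50 and -0.79 with ribosomal proteins or the Sertoli list held level. Of these genes 1 rose, the uridine phosphorylase gene Upp1 (1.06, 0.90 and 1.39), and 3 fell, Nanos2, Lhx1 and Epcam. Zbtb16, a transcription factor that keeps stem spermatogonia undifferentiated, had levels of 7.01, 6.7 and 8.35 in arrays 1 to 3, 6.2 in array 4 and 6.22 and 6.33 in the lean arrays, and it passed limma in arrays 1 and 3 but not in array 2 (adjusted p = 0.0582). Gfra1, the GDNF receptor of stem spermatogonia, had 6.57, 6.44 and 6.9 in arrays 1 to 3, 6.75 in array 4 and 7.06 and 6.92 in the lean arrays. Id4, another gene of the stem pool, was within 0.27 of lean in arrays 1 to 4. Over the 15 genes of differentiating spermatogonia the medians were -0.23, -0.15 and -0.10. Their mean over the 4 arrays went from -0.10 to -0.74 and -1.03 with ribosomal proteins or the Sertoli list held level, and to -0.38 over genes above the median level. Of them 2 rose, the receptor Kit (2.19, 1.52 and 2.67), which Leydig cells also carry, and Uchl1 (0.83, 1.09 and 1.31), and 4 fell (Sohlh2, Dmrtb1, Dazl and Ddx4), with the germ cell RNA-binding genes Dazl (-0.98, -0.43 and -2.93) and Ddx4 (-1.47, -0.47 and -4.39) among them, which stay on in spermatocytes.

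Of 31 genes of leptotene to zygotene spermatocytes 23 fell and 0 rose, with medians of -1.93, -0.64 and -2.8 in arrays 1 to 3 and -0.0047 in array 4. Meioc, which holds germ cells in the meiotic programme, differed from lean by -2.15, -0.84 and -5.54, and Hormad1, a protein of the unsynapsed chromosome axis, by -2.6, -0.64 and -4.65. Sycp3, the axis protein of the synaptonemal complex, had levels of 8.39, 10.16 and 6.73 in arrays 1 to 3, 10.28 in array 4 and 10.35 and 10.28 in the lean arrays, so that array 2 stood at the lean level while arrays 1 and 3 were below it. Of 30 pachytene genes 24 fell and 0 rose, with medians of -1.76, -0.65 and -3.86. Of 32 round spermatid genes 29 fell and 0 rose, with medians of -1.85, -0.82 and -4.14. Of 36 elongating spermatid genes 35 fell and 0 rose, with medians of -2.2, -0.70 and -4.67 in arrays 1 to 3 and -0.048 in array 4. The normal obese arrays stayed between -0.046 and 0.060 on these 4 lists. In array 3 the median loss deepened from the first of these stages to the last, whereas in arrays 1 and 2 it stayed within -1.76 to -2.2 and -0.64 to -0.82. The median lean level of the 4 lists rose in the same order, at 8.76, 10.93, 11.03 and 11.94, which leaves more room to fall. The part of signal level in the order of array 3 was not tested.

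Genes of cell division fell with the meiotic ones. Of 32 such genes 22 fell and 1 rose, with medians of -1.32, -0.69 and -2.39 in arrays 1 to 3. Plk1, a kinase of mitosis, differed by -1.98, -1.31 and -4.47. Ttk, the kinase of the spindle checkpoint, differed by -2.29, -1.04 and -4.43. The proliferation marker Mki67 differed by -1.83, -1.03 and -3.08 and Pcna, the DNA polymerase clamp, by -1.1, -0.41 and -2.26. The replicative helicase genes were split, since Mcm7 differed by -1.79, -1.06 and -2.42 and Mcm4 by 1.1, 0.40 and 0.74. In the pathway of piRNAs, the small RNAs that silence transposons in germ cells, 19 of 22 genes fell and 1 rose, with medians of -1.67, -0.79 and -2.48. Piwil1, the PIWI protein of spermatocytes and round spermatids, had levels of 6.79, 9.75 and 6.29 in arrays 1 to 3, 10.85 in array 4 and 10.80 and 10.90 in the lean arrays. Piwil4, which acts earlier, in foetal germ cells, had 6.55, 6.9 and 7.0 in arrays 1 to 3, 6.55 in array 4 and 6.27 and 6.52 in the lean arrays, and it was not called in 3 arrays. Ddx39b, an RNA helicase used by all cells, was the member that rose (0.56, 0.65 and 1.64).

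**Figure D3:**
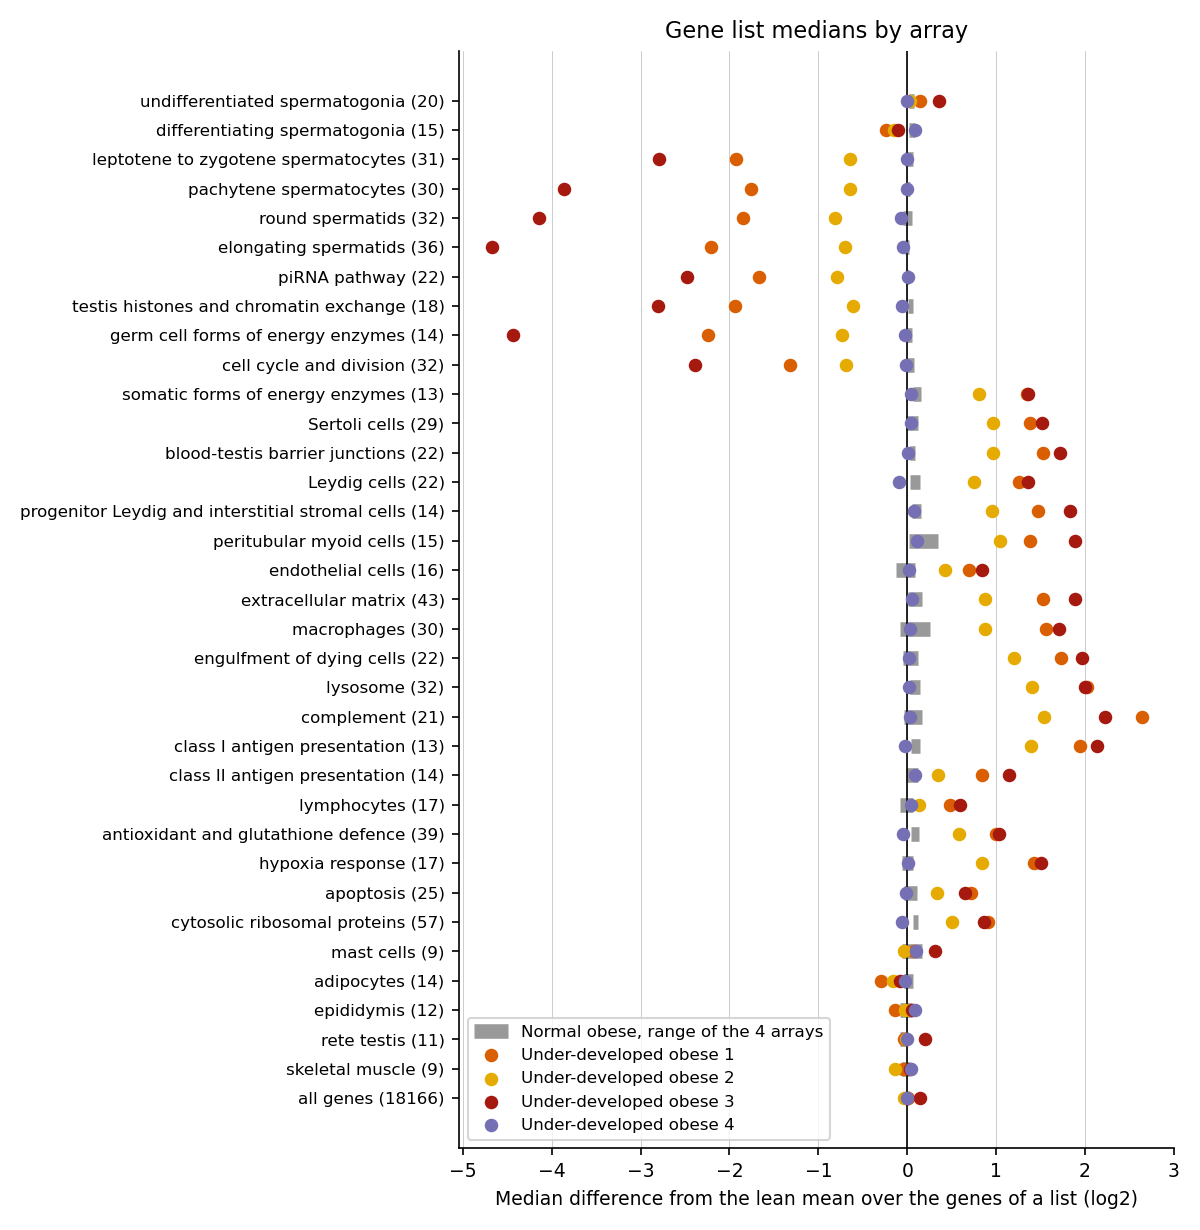
Median difference from the lean mean (log2) over the genes of each list, with the number of genes in brackets, for the 4 under-developed arrays (coloured points) and the range of the 4 normal obese arrays (grey bars). From leptotene on the germ cell lists lie left of 0 in arrays 1 to 3 with array 3 farthest, most somatic lists lie right of 0 on this scale with arrays 1 and 3 farther out than array 2, and array 4 stays near 0.

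Genes that moved in 3 arrays differed in size between arrays 1 and 3 more on the falling side. For the genes at least 2-fold higher in 3 arrays the median difference was 2.09 in array 1, 1.44 in array 2 and 2.31 in array 3. For those at least 2-fold lower it was -2.17, -1.22 and -2.98. In array 3, 622 genes lay at least 16-fold, or 4 units, below the lean mean, against 24 in array 1 and 0 in array 2. In array 1 the same genes had a median difference of -2.26, with quartiles of -2.68 and -1.84 and a range from -4.97 to -0.77. In array 2 their median was -0.94 and in array 4 it was -0.047. These values are a description, since the genes were chosen on array 3. The counts of all genes differed more between arrays 1 and 3 upward than downward, with 2882 and 3530 genes 2-fold higher against 2859 and 3039 lower.

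Within these 622 genes, 18 were as low in array 1 as in array 3, to within 0.5, and 54 were at most 1.5 below lean in array 1. Piwil1, Dyrk4, Ceacam6 and Cimap2 were of the first kind. The second kind held Acrv1 and Spam1, proteins of the acrosome, and Hspa2, the heat shock protein of spermatocytes, besides Clgn, Ldhc and Gk2. Acrv1 had levels of 10.79, 11.47 and 5.65 in arrays 1 to 3, 11.94 in array 4 and 12.05 and 11.91 in the lean arrays, and it was the gene farthest below lean in array 3. Spam1, the hyaluronidase of the sperm head, had 10.79, 11.50 and 5.82 in arrays 1 to 3, 11.94 in array 4 and 11.90 and 11.86 in the lean arrays. Hspa2 had 11.49, 12.20 and 8.65 in arrays 1 to 3, 12.63 in array 4 and 12.70 and 12.68 in the lean arrays. Array 3 was far below arrays 1 and 2 for these 3 genes, which for array 1 follows from how the second kind was chosen. The second kind had the brighter probe signals, with a median lean level of 12.01 against 10.51, and the part of signal level in this split was not tested.

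The protamines and Tnp2 were about as low in array 1 as in array 3. Prm1, a protamine, had levels of 9.49, 12.12 and 9.66 in arrays 1 to 3, 12.34 in array 4 and 12.40 and 12.45 in the lean arrays. Prm2 had 7.43, 10.23 and 7.57 in arrays 1 to 3, 10.96 in array 4 and 10.98 and 11.20 in the lean arrays. For both, array 1 was slightly below array 3 and array 2 was within 1 unit of lean. Tnp2, a transition protein that replaces histones before the protamines, had 8.37, 11.85 and 8.15 in arrays 1 to 3, 12.33 in array 4 and 12.36 and 12.56 in the lean arrays. Tnp1 had 11.96, 13.16 and 11.22 in arrays 1 to 3, 13.34 in array 4 and 13.37 and 13.40 in the lean arrays, and in array 2 it did not pass limma (adjusted p = 0.0866). Of 18 genes of testis histones and chromatin exchange 12 fell and 1 rose, with medians of -1.93, -0.61 and -2.8. Over the 15 of 18 chromatin genes at least 4-fold lower in array 3, array 1 was above array 3 by a median of 0.68, and 6 were within 0.5 of each other. Over the 36 elongating spermatid genes so chosen, which include the protamines, that median was 2.25 with 5 within 0.5. Over 31 round spermatid genes it was 2.04 with 2 within 0.5. Spem1, a protein that elongating spermatids need to shed their cytoplasm, had 7.61, 11.06 and 6.9 in arrays 1 to 3, 12.22 in array 4 and 12.13 and 12.21 in the lean arrays.

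**Figure D4:**
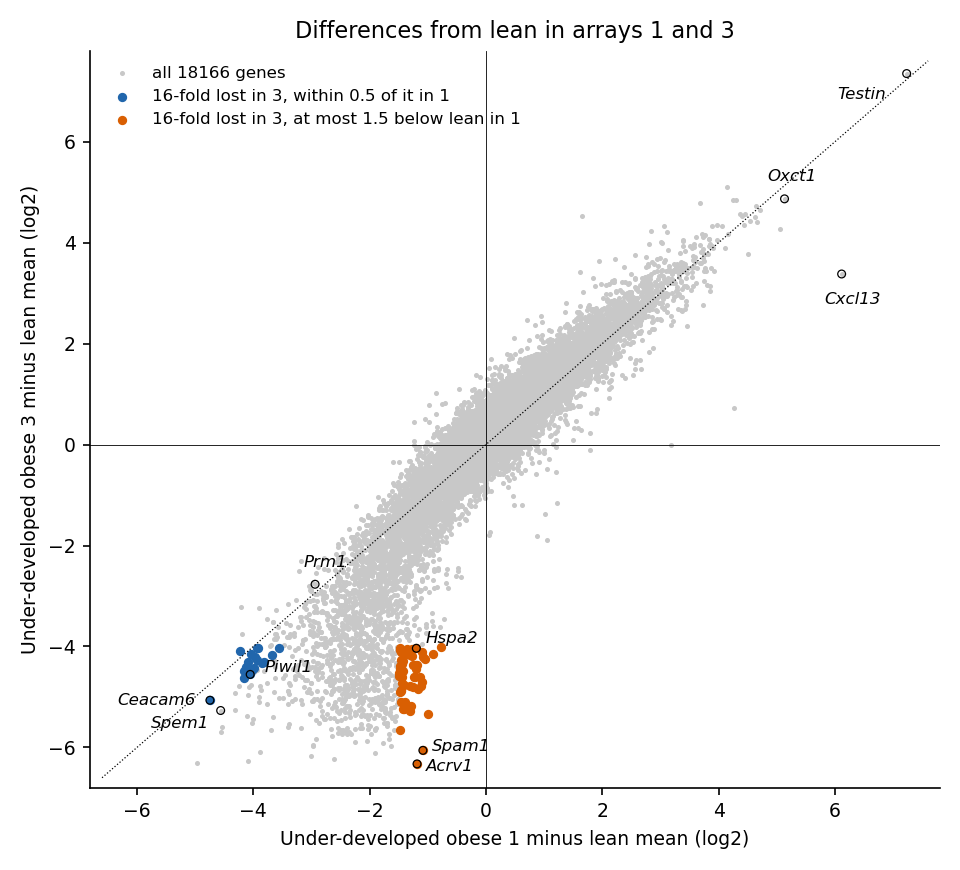
Difference from the lean mean (log2) of each gene in under-developed array 1 (horizontal) and array 3 (vertical), with equal values on the dotted line. The genes with the largest rises lie near the line, apart from Cxcl13, while of the genes lost 16-fold in array 3 those in blue are as low in array 1 and those in orange are at most 1.5 below lean there.

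The start regions of some of these genes are shown as examples. The median CpG ratio, given below, differed between the genes as low in array 1 as in array 3 and those it kept. The CpG counts of the printed examples do not follow that difference. Spem1 is in neither class, since it differed by more than 0.5 between arrays 1 and 3. Each line gives the 150 bases before the annotated start in the RefSeq annotation of rat build GRCr8, 5′ to 3′ on the gene's strand, with CpG dinucleotides in capitals. Piwil1 (chr12:33606584-33606733 on the minus strand), Tnp2 (chr10:5386585-5386734 on the plus strand) and Spem1 (chr10:55041480-55041629 on the minus strand) were low in arrays 1 and 3. Hspa2 (chr6:100864292-100864441 on the plus strand), Acrv1 (chr8:44593096-44593245 on the plus strand) and Spam1 (chr4:54268137-54268286 on the plus strand) were at most 1.5 below lean in array 1. Tnp1 (chr9:82044279-82044428 on the minus strand) is shown for a cyclic AMP response element.
Piwil1: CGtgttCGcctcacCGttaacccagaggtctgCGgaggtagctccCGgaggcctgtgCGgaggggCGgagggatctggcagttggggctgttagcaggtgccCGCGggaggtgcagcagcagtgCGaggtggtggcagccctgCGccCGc
Tnp2: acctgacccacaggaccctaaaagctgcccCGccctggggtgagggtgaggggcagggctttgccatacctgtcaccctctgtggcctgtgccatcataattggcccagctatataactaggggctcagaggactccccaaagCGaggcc
Spem1: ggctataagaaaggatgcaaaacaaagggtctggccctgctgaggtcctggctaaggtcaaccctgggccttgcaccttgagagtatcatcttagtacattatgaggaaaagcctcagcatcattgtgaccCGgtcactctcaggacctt
Hspa2: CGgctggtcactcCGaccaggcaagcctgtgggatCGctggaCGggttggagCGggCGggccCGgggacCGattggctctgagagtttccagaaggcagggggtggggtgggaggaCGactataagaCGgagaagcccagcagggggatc
Acrv1: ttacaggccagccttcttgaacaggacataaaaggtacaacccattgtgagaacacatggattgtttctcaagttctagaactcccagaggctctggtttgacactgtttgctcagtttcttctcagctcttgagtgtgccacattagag
Spam1: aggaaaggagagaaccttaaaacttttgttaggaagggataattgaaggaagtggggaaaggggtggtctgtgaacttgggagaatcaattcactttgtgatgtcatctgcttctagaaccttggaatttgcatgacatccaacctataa
Tnp1: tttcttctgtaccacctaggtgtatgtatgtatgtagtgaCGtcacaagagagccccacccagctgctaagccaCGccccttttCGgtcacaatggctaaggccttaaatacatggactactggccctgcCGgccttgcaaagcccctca

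The printed stretch of Piwil1 held 12 CpG and that of Hspa2 10, those of Tnp1, Tnp2 and Spem1 held 4, 2 and 1, and Acrv1 and Spam1 had none. Over the 250 bases before the start, the median ratio of observed to expected CpG was 0.384 in the 526 genes lost 16-fold in array 3 that had a start region, against 0.601 over all 14503 genes with one. It was 0.561 in the genes 2-fold lower in 3 arrays and 0.637 in those 2-fold higher. Among the genes lost in array 3 it was 0.159 in the 18 as low in array 1 and 0.528 in the 51 at most 1.5 below lean there. The palindrome TGACGTCA, the response element through which CREM acts in spermatids, was searched on both strands and stood in Tnp1 at -113 to -106 from the start. It was in 1.71% of the start regions of the genes lost 16-fold and in 2.23% of all. Its share was 3.14% in the genes that fell and 2.33% in those that rose. In the genes 2-fold lower and 2-fold higher in 3 arrays it was 2.53% and 2.12%. The hexamer GTTGCC, which is part of the X-box bound by RFX factors, was in 17.5% of the genes lost 16-fold against 9.98% of all and 8.97% of the genes 2-fold higher. The full palindromic X-box was in 0.57% of the genes lost 16-fold and 0.262% of all, which is 3 and 38 genes. These matches are a description of the letters in the window, with no test.

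Germ cell forms of the enzymes of energy metabolism fell and the forms used in other cells rose. Of 14 germ cell forms 10 fell and 1 rose (Glud1, which most tissues use), with medians of -2.24, -0.74 and -4.43 in arrays 1 to 3. Of 13 forms used elsewhere 11 rose and 0 fell, with medians of 1.35, 0.81 and 1.35, and their mean over the 4 arrays went from 0.89 to -0.036 with the Sertoli list held level. The ketone body enzymes had the widest gap, since the level of Oxct2b relative to Oxct1 differed from lean by -9.44, -5.91 and -9.79 in arrays 1 to 3 and by -0.20 in array 4. Pdha2, the retrogene copy of the pyruvate dehydrogenase subunit used after meiosis, had levels of 7.81, 9.52 and 6.21 in arrays 1 to 3, 10.55 in array 4 and 10.51 and 10.57 in the lean arrays, and its X-linked parent Pdha1 had 10.12, 9.27 and 9.97 in arrays 1 to 3, 7.08 in array 4 and 7.13 and 6.98 in the lean arrays. In array 2 both were at intermediate levels. Pgk2, the autosomal copy of phosphoglycerate kinase, had 9.81, 11.12 and 6.72 in arrays 1 to 3, 11.73 in array 4 and 11.74 and 11.79 in the lean arrays, and the X-linked Pgk1 had 8.78, 8.03 and 8.71 in arrays 1 to 3, 7.45 in array 4 and 7.44 and 7.27 in the lean arrays. Ldhc, the sperm lactate dehydrogenase, had 11.34, 12.59 and 8.27 in arrays 1 to 3, 12.81 in array 4 and 12.72 and 12.88 in the lean arrays, so array 2 was near lean and the gene passed limma in arrays 1 and 3 only (array 2, adjusted p = 0.157). Ldhb, the heart form, differed by 1.95, 1.52 and 2.01, and Ldha, the muscle form, by 1.35, 0.90 and 1.25. The germ cell ADP/ATP carrier Slc25a31 differed by -2.28, -0.97 and -3.38, and its counterpart Slc25a4 by 2.52, 1.92 and 2.32. Of the glucose transporters, Slc2a3 differed by -3.4, -0.94 and -4.87 and Slc2a1 by 1.33, 1.06 and 1.55.

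The start regions of the pair with the widest gap are printed in the same way. Oxct1 lies at chr2:54963814-54963963 on the plus strand with 15 CpG in the stretch, and Oxct2b at chr5:140681596-140681745 on the plus strand with 4.
Oxct1: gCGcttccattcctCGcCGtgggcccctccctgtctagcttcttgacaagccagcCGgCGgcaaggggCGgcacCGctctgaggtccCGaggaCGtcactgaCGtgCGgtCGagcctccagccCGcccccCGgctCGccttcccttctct
Oxct2b: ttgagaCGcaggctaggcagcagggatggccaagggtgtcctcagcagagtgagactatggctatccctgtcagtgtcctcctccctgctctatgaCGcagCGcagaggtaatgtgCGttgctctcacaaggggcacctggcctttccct

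**Figure D5:**
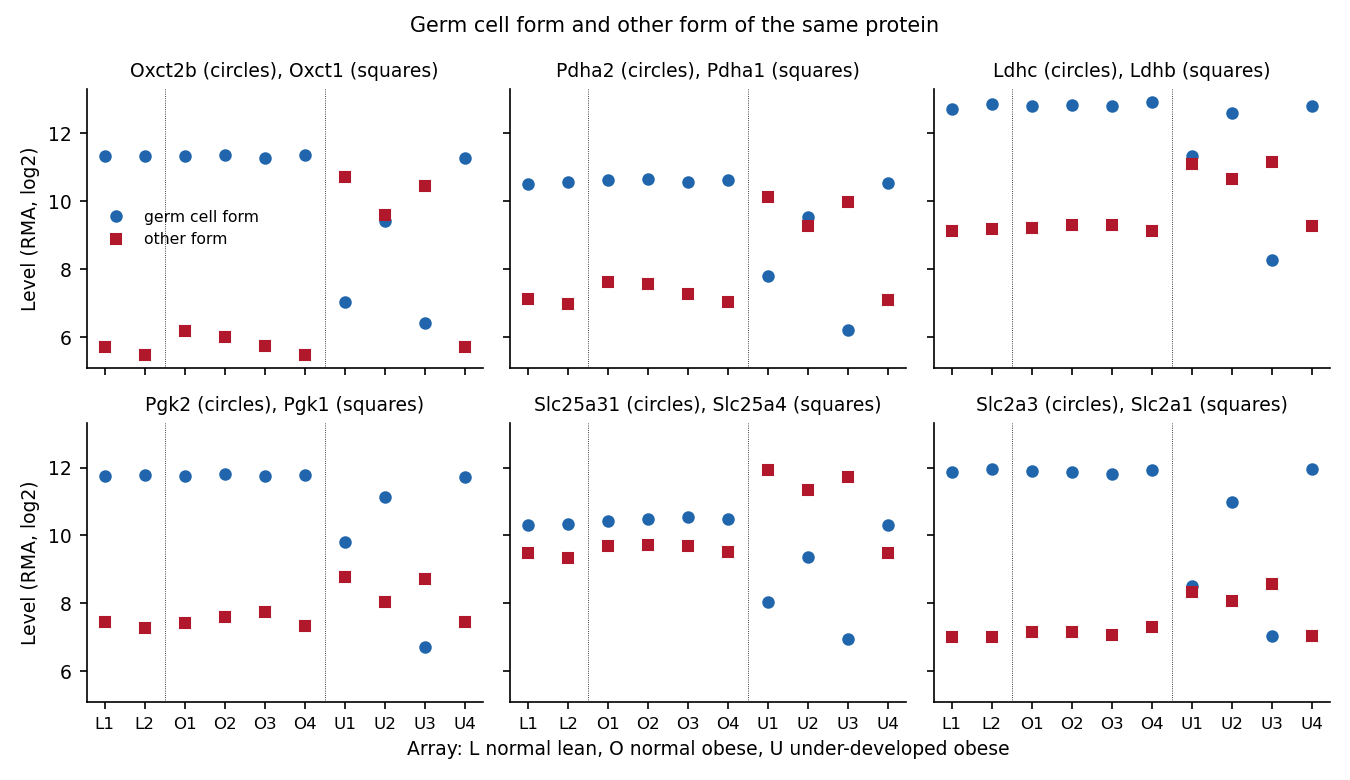
RMA log2 level in each array of 6 proteins that have a form found mainly in germ cells (blue circles) and a form used in other cells (red squares), with dotted lines between lean (L), normal obese (O) and under-developed (U) arrays. In arrays U1 and U3 the germ cell form is lower and the other form higher than in every L and O array, U2 is in between for most pairs, and U4 is at the lean level.

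Most Sertoli cell genes rose. Of 29 measured genes 19 rose and 0 fell, with medians of 1.38, 0.97 and 1.52 in arrays 1 to 3 and 0.043 in array 4. Fshr, the receptor of follicle-stimulating hormone, had levels of 9.97, 9.19 and 9.96 in arrays 1 to 3, 7.85 in array 4 and 7.73 and 7.22 in the lean arrays. Kitlg, the growth factor for Kit-bearing germ cells, differed by 2.79, 1.79 and 2.73, and Cst12, a cystatin of Sertoli cells, by 2.97, 2.52 and 2.81. Wt1, a transcription factor that keeps Sertoli identity, differed by 1.81, 1.28 and 2.13. Amh, the hormone of immature Sertoli cells, had 5.31, 5.34 and 5.49 in arrays 1 to 3, 5.44 in array 4 and 5.44 and 5.59 in the lean arrays, and in no array did it pass limma. Sox9, which fixes the Sertoli fate, differed by 0.28, 0.58 and 0.23, and Rhox8, an androgen-dependent homeobox gene, by -0.72, -0.059 and -0.88. Of 22 genes of the junctions that form the blood-testis barrier 14 rose and 1 fell, with medians of 1.53, 0.96 and 1.72. Cldn11, the claudin of the barrier, differed by 2.54, 2.18 and 2.91, F11r, the junctional adhesion molecule A gene, by 3.26, 2.46 and 3.51, and Itga6, an integrin subunit, by 3.67, 2.97 and 3.95. The member that fell was Nectin3, the adhesion partner that spermatids present to Sertoli cells, by -1.94, -0.88 and -4.13.

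Of 22 Leydig cell genes 10 rose and 0 fell, with medians of 1.25, 0.76 and 1.36 in arrays 1 to 3. Their mean over the 4 arrays went from 0.82 to -0.11 with the Sertoli list held level. Insl3, the peptide hormone of mature Leydig cells, had levels of 12.14, 11.83 and 12.88 in arrays 1 to 3, 9.68 in array 4 and 9.67 and 9.69 in the lean arrays. Akr1c14, a steroid reductase, had 9.9, 8.8 and 9.62 in arrays 1 to 3, 6.69 in array 4 and 6.3 and 5.96 in the lean arrays. The enzymes that make testosterone did not follow as one. Cyp11a1, which cleaves the side chain of cholesterol, had 8.91, 8.41 and 8.28 in arrays 1 to 3, 7.49 in array 4 and 8.54 and 8.67 in the lean arrays, and it was called in no array. Cyp17a1, which makes androgens from progestins, had 10.42, 9.02 and 9.82 in arrays 1 to 3, 7.17 in array 4 and 8.07 and 7.42 in the lean arrays, with 6.26 to 9.07 in the normal obese arrays, and passed limma only in array 1. Star, the cholesterol carrier, differed by 1.45, 0.50 and 1.7, and the luteinising hormone receptor Lhcgr by 1.29, 0.18 and 1.09, both short of a call in array 2. Hsd17b3, the last enzyme of testosterone synthesis, differed by 0.32, 0.81 and 1.19. Ptgds, a prostaglandin synthase, went in opposite directions, by 1.02 in array 1 and -1.37 in array 3.

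Most stromal, myoid and matrix genes rose. Of 14 genes of interstitial stroma and Leydig progenitors 10 rose, with medians of 1.47, 0.96 and 1.83, led by the small proteoglycan Dcn (3.78, 2.66 and 3.44) and the PDGF receptor Pdgfra (3.33, 2.86 and 3.78). Of 15 genes of peritubular myoid cells, the contractile layer around each tubule, 12 rose and 0 fell, with medians of 1.38, 1.04 and 1.89. Their normal obese medians reached 0.34. Des differed by 2.74, 2.08 and 2.64 and Myh11, smooth muscle myosin, by 1.77, 1.37 and 2.56. Of 43 extracellular matrix genes 30 rose and 1 fell, with medians of 1.53, 0.88 and 1.88. Lamc1, a laminin chain, differed by 3.21, 2.47 and 3.2, Col18a1 by 2.82, 1.93 and 3.28 and Plod2, which prepares collagen for cross-links, by 2.99, 2.45 and 3.69, whereas Col1a1 had levels of 7.64, 7.49 and 8.29 in arrays 1 to 3, 7.19 in array 4 and 7.14 and 6.83 in the lean arrays. The proteoglycan Bgn differed by 3.77, 3.12 and 3.78, and its relative Fmod was the member that fell, by -2.1, -1.81 and -2.26. Of 16 endothelial genes 7 rose, with medians of 0.69, 0.42 and 0.84. Their mean over the 4 arrays was 0.49, which turned to -0.14 with ribosomal proteins held level and was 1.33 over genes above the median level.

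Most genes of macrophages and phagocytosis rose. Of 30 macrophage genes 20 rose and 2 fell, with medians of 1.57, 0.87 and 1.71 in arrays 1 to 3 and 0.027 in array 4. Cd163, a scavenger receptor of resident macrophages, had levels of 9.78, 8.83 and 9.999 in arrays 1 to 3, 6.98 in array 4 and 6.59 and 6.21 in the lean arrays, and Cd68 had 8.29, 7.39 and 8.74 in arrays 1 to 3, 5.53 in array 4 and 5.61 and 5.4 in the lean arrays. Lyz2, the macrophage lysozyme, differed by 4.43, 2.54 and 4.35. The members that fell were Cx3cr1 (-0.94, -0.90 and -0.65) and Aif1 (-1.25, -0.50 and -2.01), a macrophage marker that spermatids also express. Of 22 genes of the engulfment of dying cells 17 rose and 1 fell (Abca7), with medians of 1.73, 1.21 and 1.96. They included the lipid exporter Abca1 (3.89, 3.33 and 4.33), the engulfment adaptors Elmo1 (3.01, 2.34 and 3.18) and Gulp1 (2.68, 2.11 and 3.01), and all 3 receptor kinases Axl, Mertk and Tyro3. Of 32 lysosome genes 26 rose and 2 fell (Neu1 and Cln3), with medians of 2.02, 1.4 and 2.0. The membrane protein Scarb2 differed by 3.24, 2.27 and 3.58, the protease Lgmn by 3.36, 2.46 and 3.55 and the protease Ctsb by 3.13, 2.67 and 3.29. Gpnmb, a glycoprotein of lysosome-rich phagocytes, had levels of 9.07, 7.45 and 10.33 in arrays 1 to 3, 5.94 in array 4 and 5.92 and 6.09 in the lean arrays, and array 3 was the highest.

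Complement genes mostly rose. Of 21 genes 13 rose and 2 fell, with medians of 2.64, 1.54 and 2.23. Every measured gene of the first component rose, with C1qa at 3.01, 2.15 and 3.0 and C1r at 3.88, 3.1 and 3.94 from lean, and so did C7 (4.11, 3.19 and 3.9) and factor D, Cfd (2.9, 2.31 and 2.83). C5, C6, C8a and C9 were not called in 3 arrays, and their differences lay between -0.41 and 0.23. The members that fell were the membrane regulators Cd55 (-2.29, -1.11 and -3.45) and Cd46 (-1.77, -0.62 and -1.29), which protect cells from complement and are rich in spermatids. In class I antigen presentation 11 of 13 genes rose and 0 fell, with medians of 1.95, 1.4 and 2.14. The immunoproteasome subunit Psmb8 differed by 3.39, 2.58 and 4.03, the peptide trimmer Erap1 by 3.24, 2.56 and 3.45 and the light chain B2m by 2.8, 2.55 and 2.93. In class II presentation 6 of 14 rose, with medians of 0.85, 0.35 and 1.15 and a mean over the 4 arrays of 0.61. That mean turned to -0.027 with ribosomal proteins held level and was 2.25 over genes above the median level. Cd74, the invariant chain, differed by 3.75, 2.42 and 3.63 and RT1-Da by 3.68, 2.13 and 3.59, although RT1 genes have near copies. Of 17 lymphocyte genes 3 rose (Cd3g, Cd79a and Nkg7), with medians of 0.48, 0.13 and 0.59 in arrays 1 to 3. Their mean over the 4 arrays went from 0.31 to -0.32 with ribosomal proteins held level and was 1.57 over genes above the median level. That filter counted the under-developed arrays too, so members high in arrays 1 to 3 passed it more easily, here and in the class II list. Cd3e, a chain of the T cell receptor complex, differed by 0.082, -0.31 and 0.050. Cxcl13, the chemokine that draws B cells, had levels of 11.66, 8.45 and 8.93 in arrays 1 to 3, 4.86 in array 4 and 5.63 and 5.47 in the lean arrays, so array 1 was the highest and array 4 the lowest, while the B cell gene Ms4a1 differed by -0.20, -0.76 and -0.48.

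Several pathways held both risers and fallers, as did all genes, of which 20.4% rose and 21.1% fell. Of 39 genes of antioxidant and glutathione defence 22 rose and 4 fell, with medians of 1.0, 0.59 and 1.04 in arrays 1 to 3. Their mean over the 4 arrays went from 0.64 to -0.28 with the Sertoli list held level and was 1.23 over genes above the median level. Extracellular superoxide dismutase Sod3 differed by 3.19, 2.58 and 3.39, thioredoxin Txn1 by 3.11, 2.24 and 2.95 and Gstp1 by 3.06, 2.05 and 2.7. The fallers were Gpx4, Txnrd3, Gclm and Keap1, of which Gpx4 is the selenium enzyme of the sperm midpiece, with levels of 11.27, 12.03 and 10.95 in arrays 1 to 3, 12.13 in array 4 and 12.34 and 12.36 in the lean arrays. Txnrd3, the testis thioredoxin reductase, differed by -1.97, -0.81 and -3.99. In retinoid metabolism 7 of 21 genes rose and 5 fell (Stra6, Lrat, Rdh10, Rdh11 and Aldh1a2), with medians of 0.058, 0.055 and 0.48 and a mean over the 4 arrays that turned from 0.15 to -0.49 and -0.77 with ribosomal proteins or the Sertoli list held level. Aldh1a2, the main enzyme of retinoic acid synthesis in germ cells, differed by -2.28, -1.22 and -4.29, while Aldh1a1, which does the same in Sertoli cells, differed by 2.68, 2.16 and 2.91 and Cyp26b1, which degrades retinoic acid, by 2.01, 1.92 and 2.9. In cholesterol synthesis 4 of 16 genes rose (Dhcr7, Msmo1, Nsdhl and Pmvk) and 7 fell, with medians of -0.23, -0.28 and 0.23. Fdps, which makes farnesyl diphosphate, differed by -2.18, -1.01 and -2.52. Fdft1, which joins farnesyl units into squalene, differed by -1.22, -0.70 and -1.71. Msmo1, which works on the sterol after the ring has closed, differed by 1.79, 0.86 and 1.93.

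Of 25 genes of apoptosis 11 rose and 3 fell, with medians of 0.72, 0.34 and 0.65 in arrays 1 to 3. Their mean over the 4 arrays went from 0.42 to -0.21 with ribosomal proteins held level. The tumour necrosis factor receptor Tnfrsf1a differed by 4.05, 3.11 and 4.33 and Casp12 by 3.38, 2.87 and 4.04, while Bcl2l1, Bcl2l14 and Diablo fell, Bcl2l14 by -3.0, -1.32 and -4.72 and Diablo, which frees caspases, by -2.12, -0.34 and -2.66. Faslg differed by 0.014, 0.30 and 0.026. Of 17 genes of the hypoxia response 13 rose and 0 fell, with medians of 1.42, 0.84 and 1.5. Of 19 immediate early and stress genes 13 rose and 2 fell (Dnajb1 and Ddit3), with medians of 1.2, 0.98 and 1.56. With the Sertoli list held level the mean over the 4 arrays went from 0.94 to 0.019 for the hypoxia list and from 0.93 to 0.0070 for the immediate early and stress list. Of 29 genes of leptin and insulin signalling 18 rose and 2 fell (Mtor and Gsk3b), with medians of 0.95, 0.55 and 1.28 in arrays 1 to 3. Their mean over the 4 arrays went from 0.69 to -0.24 with the Sertoli list held level. Jak2, a kinase that leptin turns on, differed by 3.31, 2.46 and 3.32, and Stat3, the factor it activates, by 3.48, 2.71 and 3.5. Lep, the hormone itself, had levels of 4.58, 4.59 and 4.82 in arrays 1 to 3, 4.8 in array 4 and 5.04 and 4.82 in the lean arrays. Cytosolic ribosomal protein genes had 37 of 57 risen, with medians of 0.91, 0.51 and 0.86.

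Of 20 genes of the germ cell ubiquitin pathway 14 fell and 1 rose (Huwe1), with medians of -1.7, -0.62 and -2.61. Of 13 genes of immature Sertoli cells 2 rose (Thra and Igf1r) and 2 fell (Mki67 and Top2a), with medians of -0.21, -0.18 and -0.031. Of 9 androgen-regulated Sertoli genes 4 rose and 1 fell, with medians of 0.49, 0.41 and 0.34 in arrays 1 to 3. Their mean over the 4 arrays went from 0.29 to -0.35 with ribosomal proteins held level and was 0.81 over genes above the median level. The risers were Tubb3, Defb19, Ldhb and Ncoa7, and the gene that fell was B4galnt1, by -1.58, -0.94 and -1.45.

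Lists of tissues and cells that border or enter the testis were measured too, and the medians of epididymis, rete testis and skeletal muscle were near lean. Of 12 epididymis genes 0 rose and 1 fell (Ces5a), with medians of -0.14, -0.025 and 0.052 in arrays 1 to 3, and the log2 of their summed linear level was 9.54 to 9.58 in the under-developed arrays and 9.49 to 9.55 in the lean arrays. The sperm-coating protein Crisp1, which defines the epididymis, had 4.5, 4.37 and 4.11 in arrays 1 to 3, 4.5 in array 4 and 4.18 and 3.96 in the lean arrays. Of 11 rete testis genes 1 rose (Emx2) and 2 fell (Cftr and Epcam), with medians of -0.035, -0.016 and 0.20 and a summed level of 10.07 to 11.03 in the under-developed arrays and 11.02 to 11.09 in the lean arrays. Pax8, its defining factor, differed by -0.035, 0.26 and 0.072, and Cftr, a channel that germ cells express too, by -3.12, -1.6 and -4.35. Of 9 skeletal muscle genes 0 rose and 1 fell (Actn3), with medians of -0.048, -0.13 and 0.031 and a summed level of 9.13 to 9.34 in the under-developed arrays and 9.28 to 9.37 in the lean arrays. Of 14 adipocyte genes 3 rose, the lipase Lpl, Fabp4 and Cfd, and 3 fell (Cidec, Lipe and Pnpla2), with medians of -0.29, -0.16 and -0.084 and a summed level of 11.79 to 12.34 in the under-developed arrays and 12.36 to 12.44 in the lean arrays. Adipoq, which defines fat cells, had 5.69, 5.9 and 5.63 in arrays 1 to 3, 6.27 in array 4 and 6.12 and 6.17 in the lean arrays. The hormone-sensitive lipase Lipe, which spermatids also make, differed by -3.19, -1.89 and -2.31. Of 9 mast cell genes 0 rose, with medians of 0.080, -0.036 and 0.32 and a summed level of 8.41 to 8.6 in the under-developed arrays and 8.4 to 8.46 in the lean arrays. Of 6 red blood cell genes 0 rose, with medians of -0.16, -0.011 and -0.082 and a summed level of 7.97 to 8.21 in the under-developed arrays and 7.9 to 7.91 in the lean arrays, and the globin gene Hba-a1 differed by 2.14, 2.54 and 1.26 with 0.45 in array 4. The Schwann cell list was above lean in arrays 1 to 3 on the deposited scale. Of its 8 genes 3 rose (S100b, Pmp22 and Erbb3), with S100b at 2.65, 1.66 and 2.81 from lean, medians of 0.59, 0.19 and 0.50 and a summed level of 9.8 to 11.13 in the under-developed arrays and 9.52 to 9.65 in the lean arrays, and their mean over the 4 arrays turned to -0.29 with ribosomal proteins held level and was 1.7 over genes above the median level. The part of blood, fat or nerve in the other results was not tested.

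Genes on the X chromosome, which germ cells silence in meiosis, rose in a larger share than those of any single autosome, by a small margin over the highest. Of 706 X-linked genes 30.9% rose and 15.4% fell, against 15.9% to 29.5% and 18.2% to 26.8% on single autosomes. At least 2-fold above lean were 28.3%, 15.7% and 29.5% of them in arrays 1 to 3, against 15.4%, 7.91% and 19% of autosomal genes and up to 23.3%, 13% and 27.7% on a single autosome. These shares are a description with no test. Besides Timp1 and Bgn, the largest X-linked rises were those of the chromatin remodeller Smarca1 (3.39, 2.98 and 3.94), the interleukin-13 receptor genes Il13ra2 (3.3, 2.62 and 3.42) and Il13ra1 (3.54, 2.46 and 3.32), and the respiratory chain subunit Cox7b (3.21, 2.63 and 3.44). The largest X-linked falls included those of Tex13a (-2.99, -1.74 and -5.08), the phosphatase Ppef1 (-3.04, -1.63 and -4.9) and the histone gene H2ap (-3.38, -0.88 and -3.81).

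Among 363 microRNA loci with a probe set 19 rose and 11 fell, which is below the share of all genes. At least 2-fold higher in 3 arrays were 5 of the 363 loci, against 8.02% of all genes. Of the 5 loci 4 are on the X chromosome, where 15.4% of the loci lie. Mir743b, Mir871 and Mir878 lie close together there (chrX:150444588-150478645), so they need not be separate cases. Mir505 had levels of 7.37, 7.49 and 8.47 in arrays 1 to 3, 5.44 in array 4 and 5.43 and 5.21 in the lean arrays, and Mir743b had 6.21, 5.67 and 6.32 in arrays 1 to 3, 4.67 in array 4 and 4.26 and 4.54 in the lean arrays. Mir871 differed by 1.26, 1.06 and 2.02 and Mir878 by 1.24, 1.01 and 1.27, both also on the X chromosome, and the autosomal Mir204 by 1.19, 1.18 and 1.63. The median lean level of the loci was 4.73, a dim signal, and the probes read RNA of the locus without separating the hairpin from its mature arms. The mature arms of the X-linked loci in RefSeq are printed with the seed, bases 2 to 8, in capitals, and no seed is shared among them.
rno-miR-505-3p: gUCAACACuugcugguuucc
rno-miR-505-5p: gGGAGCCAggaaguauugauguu
rno-miR-743b-3p: gAAAGACAccauacugaauaga
rno-miR-743b-5p: uGUUCAGAcugguguccaucau
rno-miR-871-3p: uGACUGGCaccauacuggauaa
rno-miR-871-5p: uAUUCAGAuuggugccggucacau
rno-miR-878: gCAUGACAccauacuggguaga

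A few genes differed from lean in all 4 under-developed arrays. At least 1.5-fold beyond both lean values were 4 genes upward, 1 of them with a placeholder symbol, and 3 downward. Kcna3, a voltage-gated potassium channel, had levels of 6.3, 6.51 and 6.8 in arrays 1 to 3, 6.57 in array 4 and 7.51 and 7.63 in the lean arrays, with 7.18 to 7.34 in the normal obese arrays, so all 4 under-developed arrays were below all 6 others. Its group difference by limma was -1.02 ± 0.15 (SE, adjusted p = 0.154). Fam50a, an X-linked gene of RNA splicing, had 7.09, 6.34 and 6.31 in arrays 1 to 3, 5.92 in array 4 and 5.12 and 5.28 in the lean arrays, with 5.02 to 5.51 in the normal obese arrays. Srrd had 9.22, 9.82 and 7.94 in arrays 1 to 3, 10.50 in array 4 and 11.11 and 11.16 in the lean arrays, with 10.67 to 11.26. For Art4 the levels were 7.42, 6.86 and 7.86 in arrays 1 to 3, 6.15 in array 4 and 5.53 and 5.55 in the lean arrays, and the normal obese arrays overlapped with array 4 at 5.42 to 6.16. Marchf8, a membrane-bound ubiquitin ligase, had 8.46, 8.23 and 8.58 in arrays 1 to 3, 8.49 in array 4 and 7.52 and 7.49 in the lean arrays, but the normal obese arrays ranged from 7.52 to 8.77. Plet1 had 4.2, 4.11 and 4.57 in arrays 1 to 3, 4.31 in array 4 and 5.97 and 5.45 in the lean arrays and 4.18 to 5.15 in the normal obese arrays, so for both genes the normal obese testes overlapped with the under-developed ones. Kcnv2, another potassium channel subunit, was among the genes of smallest unadjusted p and had 5.08, 5.12 and 5.0 in arrays 1 to 3, 5.33 in array 4 and 5.77 and 5.99 in the lean arrays, with 5.61 to 5.82 in the normal obese arrays.

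Array 4 on its own was at the level of the normally developed testes in the germ cell genes named above. Its differences from lean had an SD over genes of 0.19, against 0.16 to 0.20 in the normal obese arrays and 0.71 to 1.53 in arrays 1 to 3. The largest was that of Kremen1, a Wnt pathway receptor, with levels of 6.1, 8.17 and 6.85 in arrays 1 to 3, 9.19 in array 4 and 6.57 and 6.36 in the lean arrays, but the normal obese arrays had 9.35 to 10.16. P4ha3, a collagen prolyl hydroxylase subunit, had 5.06, 5.64 and 5.83 in arrays 1 to 3, 8.1 in array 4 and 5.63 and 5.51 in the lean arrays, and one normal obese array reached 7.77. Cyp11a1 was 1.11 below lean in array 4, the largest fall of a Leydig cell gene there, and it was not called (adjusted p = 0.519). The medians of the 6 germ cell stage lists in array 4 lay between -0.067 and 0.085.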

How the data were processed

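The authors deposited log2 values for 36685 probe sets on 10 Affymetrix rat arrays, made by RMA per the submitters' processing notes, from Trizol total RNA labelled with the WT PLUS kit per the labels' protocols. Background correction, quantile normalisation and summary of probes are parts of RMA, and quantile normalisation fixes the distribution of each array, so a large shift one way is partly turned into its opposite. The version and the annotation used are not given in the sources used here. Values ran from 2.28 to 14, and the precision is limited by the number of arrays.

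The platform annotation gave 1 symbol to 18511 probe sets, several to 575 and none to 17599, and 18394 of the named ones matched RefSeq genes of GRCr8. The brightest probe set stood for each of 18166 genes, of which 291 had several. limma 3.58.1 in R 4.3.3 gave each under-developed array minus the lean mean, with the spread taken from the 6 normal arrays, and in a separate fit the contrast of group means over all 10 arrays. P-values are two-sided and were adjusted by Benjamini-Hochberg over all genes at a threshold of 0.05. The fits were tested on simulated data. Tables and plots were made in Python 3.11.15 with pandas 2.3.3 and matplotlib 3.10.9. Every sample column was used.

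Genes were named by a rule with these parts: the 12 largest and 12 smallest median differences among genes 2-fold from lean in 3 arrays, those 1.5-fold beyond both lean values in all 4 arrays, the 5 extremes of each array, the 4 members of each list that moved most with its first 3 members, the smallest p in each direction, and a short set of testis genes. Genes that fall outside it were chosen after their values were seen: Aif1, Bcl2l14, Cd46, Cd55, Col18a1, Cox7b, Cx3cr1, Dazl, Ddx39b, Defb19, Diablo, Fabp4, Faslg, Fmod, Gclm, Gpnmb, Gpx4, Gulp1, Hormad1, Hspa2, Id4, Il13ra1, Il13ra2, Keap1, Lhx1, Mcm4, Mcm7, Meioc, Ms4a1, Nanos2, Nectin3, Pcna, Plod2, Ppef1, Ptgds, Rhox8, Slc25a31, Smarca1, Spam1, Tex13a, Txnrd3 and Uchl1, as were the microRNA loci and the genes listed in brackets after a count. The members and lists were chosen with earlier results of these data known. Alternatives were other scalings (array median, ribosomal proteins, the Sertoli list, quantile normalisation again), an offset of 50, filters on dim genes, other handling of probe sets, another reference, array weights, trended and robust moderation, the 6 arrays alone, the replicate number as a block, and leaving out 1 array at a time. One alternative, the 2-fold count in 3 arrays without array 4, was added after seeing the data.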

Additional observations from a re-analysis of the deposited data

Results flagged for a closer look

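Array 4 stood apart from arrays 1 to 3 by the gap test of Dixon in 7 of the genes named. B2m had 10.74 in array 4. Clic1 had 5.9 in array 4. Cp had 7.89 in array 4. Cst12 had 9.57 in array 4. Mtor had 9.996 in array 4. Testin had 5.53 in array 4. Timp1 had 8.27 in array 4. Array 2 stood apart in Cd3e, with a level of 4.84. Array 3 stood apart in the median of the rete testis list (0.20) and in that of the retinoid list (0.48). In all, 10 of 260 groups of values tested were set apart. Chance alone would set apart about 1 in 20 groups of independent values in such a test. The groups share the same arrays and many genes were picked for their change, so the share cannot be weighed against chance. The test sets the gap against the whole range, so a wide spread among arrays 1 to 3 hides a distance of array 4.

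Probe sets that the platform annotation does not name were left out of the comparisons, and they also moved. At least 2-fold above the lean mean were 1797 of them in array 1, 1169 in array 2, 3079 in array 3 and 181 in array 4, against 36 to 73 in the normal obese arrays. At least 2-fold below it were 1404, 693, 1432 and 185, against 99 to 503. Array 4 was thus beyond the normal obese arrays upward and within their range downward.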

How the results depend on the processing

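The germ cell lists from leptotene on kept their direction under every alternative run. The number of genes called for the group depended on array 4, on the reference and on array weights, and the direction of weaker somatic lists on the scale. Same-numbered arrays did not vary together in every pair (r of their deviations from the group means -0.056 to 0.26), so the numbers were not taken to pair the samples. With the replicate number as a block limma called 0 genes higher and 0 lower, with 5857 at an unadjusted p under 0.05.

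Against all 6 normal arrays the counts were group calls higher 3215, group calls lower 2858, 2-fold in array 4 higher 4 and 2-fold in array 4 lower 1. Group differences of the other sign were Cd3e 0.0070 and Kremen1 -1.06. With array weights the counts were group calls higher 4961 and group calls lower 4659. Group differences of the other sign were Cd3e 0.0019, Cyp11a1 0.078, P4ha3 -0.18 and Ptgds 0.45. With ribosomal proteins held level the counts were calls in array 1 higher 1991, calls in array 1 lower 13894, calls in array 2 higher 1511, calls in array 2 lower 12900, calls in array 3 higher 2561, calls in array 3 lower 12712, called in 3 arrays higher 1385, called in 3 arrays lower 11599, 2-fold in array 1 higher 884, 2-fold in array 1 lower 8894, 2-fold in array 2 higher 532, 2-fold in array 2 lower 4713, 2-fold in array 3 higher 1185, 2-fold in array 3 lower 7137, 2-fold in 3 arrays higher 498 and 2-fold in 3 arrays lower 4314. List means of the other sign were undifferentiated spermatogonia -0.50, endothelial cells -0.14, class II antigen presentation -0.027, lymphocytes -0.32, mast cells -0.52, rete testis -0.60, Schwann cells -0.29, apoptosis -0.21, retinoid metabolism -0.49, androgen-regulated Sertoli genes -0.35 and cytosolic ribosomal proteins -0.081. The last is the list held level, so its value and sign are set by the scale. List means that moved were differentiating spermatogonia -0.74, somatic forms of energy enzymes 0.25, Sertoli cell immaturity -0.74, cholesterol synthesis -0.71, adipocytes -0.78, epididymis -0.64, red blood cells -0.66, skeletal muscle -0.66, antioxidant and glutathione defence 0.0089 and leptin and insulin signalling 0.053. Group differences of the other sign were Cd3g -0.054, Crisp1 -0.33, Emx2 -0.052, Faslg -0.63, Lhcgr -0.092, Mcm4 -0.074, P4ha3 -0.048, Pax8 -0.57, Piwil4 -0.28 and Sox9 -0.33. With the Sertoli list held level the counts were calls in array 1 higher 1435, calls in array 1 lower 15084, calls in array 2 higher 910, calls in array 2 lower 15242, calls in array 3 higher 1491, calls in array 3 lower 14916, called in 3 arrays higher 842, called in 3 arrays lower 14238, 2-fold in array 1 higher 567, 2-fold in array 1 lower 11938, 2-fold in array 2 higher 286, 2-fold in array 2 lower 8850, 2-fold in array 3 higher 605, 2-fold in array 3 lower 11781, 2-fold in 3 arrays higher 273 and 2-fold in 3 arrays lower 8181. List means of the other sign were undifferentiated spermatogonia -0.79, somatic forms of energy enzymes -0.036, Leydig cells -0.11, endothelial cells -0.43, class II antigen presentation -0.31, lymphocytes -0.61, mast cells -0.81, rete testis -0.89, Schwann cells -0.57, antioxidant and glutathione defence -0.28, apoptosis -0.50, leptin and insulin signalling -0.24, retinoid metabolism -0.77, androgen-regulated Sertoli genes -0.64 and cytosolic ribosomal proteins -0.37. List means that moved were differentiating spermatogonia -1.03, Sertoli cells 0.054, Sertoli cell immaturity -1.02, blood-testis barrier junctions 0.13, progenitor Leydig and interstitial stromal cells 0.16, cholesterol synthesis -0.99, peritubular myoid cells 0.18, extracellular matrix 0.16, macrophages 0.12, engulfment of dying cells 0.30, adipocytes -1.06, epididymis -0.93, red blood cells -0.95, skeletal muscle -0.95, immediate early and stress 0.0070 and hypoxia response 0.019. The Sertoli cell value is set by the scale, which holds that list level. Group differences of the other sign were Cd3g -0.34, Cd79a -0.10, Col1a1 -0.26, Crisp1 -0.62, Ddx39b -0.22, Dhcr7 -0.085, Emx2 -0.34, Erbb3 -0.15, Fabp4 -0.17, Faslg -0.92, Glud1 -0.13, Hsd17b3 -0.25, Huwe1 -0.11, Ldha -0.0084, Lhcgr -0.38, Mcm4 -0.36, Mertk -0.19, Mir878 -0.00026, Nkg7 -0.21, P4ha3 -0.34, Pax8 -0.85, Pgk1 -0.039, Piwil4 -0.57, Pmvk -0.12, Sox9 -0.62, Star -0.041, Uchl1 -0.087, Upp1 -0.035 and Zbtb16 -0.13. Both filters on dim genes used the mean over all 10 arrays, so members high in arrays 1 to 3 passed them more easily. Over genes above the median the counts were calls in array 1 higher 3611, calls in array 3 higher 3903, 2-fold in array 3 higher 2307, 2-fold in array 4 higher 1 and 2-fold in array 4 lower 1. List means of the other sign were Sertoli cell immaturity 0.086, epididymis 0.21 and rete testis -0.97. List means that moved were differentiating spermatogonia -0.38, endothelial cells 1.33, class II antigen presentation 2.25, lymphocytes 1.57, adipocytes -0.73, Schwann cells 1.7, antioxidant and glutathione defence 1.23 and androgen-regulated Sertoli genes 0.81. Over every probe set the counts were calls in array 1 higher 8492, calls in array 3 higher 11553, 2-fold in array 1 higher 4820, 2-fold in array 1 lower 4356, 2-fold in array 2 higher 2734, 2-fold in array 2 lower 1869, 2-fold in array 3 higher 6772, 2-fold in array 3 lower 4590, 2-fold in array 4 higher 188, 2-fold in array 4 lower 191 and 2-fold in 3 arrays higher 2390. With an offset of 50 the counts were 2-fold in array 2 higher 990, 2-fold in array 2 lower 726, 2-fold in array 4 higher 2, 2-fold in array 4 lower 0 and 2-fold in 3 arrays lower 701. Over genes above the 25th percentile the counts were 2-fold in array 4 higher 2 and 2-fold in array 4 lower 1. List means of the other sign were Sertoli cell immaturity 0.015. List means that moved were adipocytes -0.26, Schwann cells 0.61 and androgen-regulated Sertoli genes 0.61. With median centring the list means that moved were skeletal muscle -0.12. Group differences of the other sign were Faslg -0.087 and Pax8 -0.024. With quantile normalisation again the group differences that changed sign were Faslg -0.051. With the replicate number as a block the group differences that changed sign were Ptgds 0.20.

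Leaving out 1 array at a time gave these ranges: group calls higher 0 to 4646, group calls lower 0 to 4220, 2-fold in array 4 higher 14 to 20, 2-fold in array 4 lower 6 to 10, Cd3e -0.095 to 0.056, Faslg -0.092 to 0.11, P4ha3 -0.060 to 0.95 and Ptgds -0.54 to 0.25. The upper ends of the group calls are those without array 4. Of the 217 named genes 189 passed limma without array 4 and 199 with array weights, in the direction they had. Over all 18166 genes limma called 4646 higher and 4220 lower without array 4, and 4961 and 4659 with array weights. Many of the named genes were chosen for large differences in these same arrays, so a high share was built in. Array 4 had the smallest of these weights. Alternatives that gave every result on the same side, such as trended and robust moderation, the mean of probe sets and the fit of the 6 arrays alone, are not listed. The last of these did lower the number of genes at an unadjusted p under 0.05 by limma from 5776 to 881. The cause was not tested. Probe signal near background limits the fold of dim genes, and the files carry no detection call.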

Other observations

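Some genes were among the largest changes of a single array. Cstdc2, a cystatin-like gene, had levels of 9.92, 10.18 and 9.29 in arrays 1 to 3, 6.83 in array 4 and 6.45 and 5.79 in the lean arrays. S100a11, a calcium-binding protein of the cell cortex, had 9.6, 8.47 and 10.57 in arrays 1 to 3, 5.84 in array 4 and 5.52 and 5.41 in the lean arrays, and Myof, a protein of membrane repair, had 10.65, 9.83 and 11.20 in arrays 1 to 3, 6.12 in array 4 and 6.3 and 6.43 in the lean arrays. Both were among the 5 largest rises of array 3. Among the largest falls of array 2 were Mapk10, a stress kinase of brain and testis, which had 5.97, 6.15 and 5.08 in arrays 1 to 3, 8.45 in array 4 and 8.45 and 8.37 in the lean arrays, and Wbp2nl, the postacrosomal sheath protein of sperm, which had 5.86, 6.61 and 5.72 in arrays 1 to 3, 8.81 in array 4 and 8.58 and 8.77 in the lean arrays. Asb17, a testis gene, had 6.79, 9.21 and 4.61 in arrays 1 to 3, 10.83 in array 4 and 10.86 and 10.90 in the lean arrays, so that array 3 was far below array 1.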
